A study of Mus musculus with 6 samples.

Results

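The genes described here encode the nuclear subunits of the mitochondrial respiratory chain and ATP synthase, with a few of their assembly factors and relatives. They were chosen by gene name alone, as names that begin with Ndufa, Ndufb, Ndufc, Ndufs, Ndufv, Sdha to Sdhd, Uqcr, Cyc1, Cox4 to Cox8 or Atp5. The rule took 95 of the 23235 genes in the RNA-seq table of mouse embryonic stem cells (ESCs) and retinoic acid (RA)-induced neuronal cells (NCs). By their known roles, 82 of the 95 are subunits and 13 are assembly factors or relatives, which the rule takes because they share a name stem. Of all 95 genes, 93 had a mean FPKM over the conditions of at least 1, where FPKM is the count of sequenced fragments scaled to the length of the transcript and to the mapped fragments of the library. The other two were Cox8b, listed at 0 in both conditions, and Cox6a2, at 0.143 in ESCs against 0.476 FPKM in NCs.

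The respiratory chain sits in the inner mitochondrial membrane and is built of complexes I to IV. Complex I oxidizes NADH and complex II oxidizes succinate, and both pass electrons through ubiquinone to complex III, then by cytochrome c to complex IV, which reduces oxygen to water. Complexes I, III and IV pump protons across the membrane, and the return of these protons through complex V, the ATP synthase, drives ATP formation. Pluripotent ESCs are known for a high rate of glycolysis and for mitochondria with few cristae.

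Both conditions came from E14Tg2a, 1 line of mouse ESCs, at passages 37 to 40. ESCs were 3 RNA samples from cultures with leukemia inhibitory factor (LIF), the cytokine that keeps them pluripotent. NCs were 3 RNA samples from LIF-free monolayers given 1 μM RA for 2 days. RNA-seq served to find the genes expressed in each state and those that differ, within a study of the genes bound by a nuclear form of the receptor FGFR1 and its partners.

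The deposited values are 1 FPKM per gene and condition, pooled by the authors over the 3 samples. The spread between samples is therefore unknown, no difference below has a replicate check or a test of its own, since the results of the authors' test in the same table were not used, and the depth of each sample is unknown. In bulk RNA, a change in the kinds of cells present and a change in RNA per cell cannot be told apart. The 6 pluripotency markers were all lower in NCs, their summed level being 2078 FPKM in ESCs and 81.4 in NCs. All 5 RA response genes were higher in NCs (7.36 and 710.4 FPKM, summed), as were all 5 neural progenitor markers (19.2 and 147 FPKM, summed). Of 6 markers of neurons 1 was higher and 5 were lower in NCs (55.6 and 12.1 FPKM, summed), so the cells labelled NCs had more progenitor transcripts than ESCs but fewer of these neuronal ones. Markers of endoderm were higher in NCs in 5 of 5 cases (7.89 and 19.9 FPKM, summed), those of mesoderm were lower in 3 of 3 (2.01 and 1.07 FPKM, summed), and those of fibroblasts were higher in 2 and lower in 2 (19.1 and 38.3 FPKM, summed). No marker was listed at 0, and the part of other cell types in the results was not tested.

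Respiratory chain transcripts were abundant in both conditions and were modestly lower in NCs. The 93 genes summed to 19596.1 in ESCs against 15333.5 FPKM in NCs, and the median gene stood at percentile 95.3 of mean FPKM among all genes kept. The median log2 ratio of NC to ESC FPKM was -0.28, with the middle of the distribution from -0.52 to -0.14 (quartiles) and a range from -3.23 to 0.91. In all, 81 genes were lower and 12 higher in NCs, beside 52.4% of all 12784 genes with a mean FPKM of at least 1 that were lower. At a 2-fold limit 6 genes were lower and 0 higher, where 9.93% of all genes were lower and 11.1% higher. At a 1.5-fold limit 16 genes were lower and 1 was higher, where 18.8% of all genes were lower and 19.3% higher.

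The direction of these small differences cannot be separated from the scaling between conditions. FPKM summed to 770592 over all genes in ESCs and to 628679 in NCs, which is 0.29 on the log2 scale. Set to equal sums, 45 of the 93 genes were lower and 48 higher, and their median log2 ratio was 0.016. The median of all genes with a mean FPKM of at least 1 was then 0.26. Under either scaling 79 of the 93 lay below the median of all genes and 14 above it. Abundant genes were more often lower than higher in NCs as deposited. Among the 895 genes with a mean FPKM of at least 100 the median log2 ratio was -0.30 and 74.4% were lower, and the 60 respiratory chain genes in that range had a median of -0.32, with 54 lower and 6 higher. At the 2-fold limit 1 of these 60 was lower and 0 were higher, beside 8.16% and 3.91% of abundant genes. At the 1.5-fold limit 8 were lower and 0 higher, beside 20.8% and 6.37%. The respiratory chain genes differed from each other less than other genes did, since the distance between the quartiles of the log2 ratio was 0.38 for them and 0.85 for all genes, and in the abundant range 0.35 against 0.54. No test was run on this difference.

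**Figure D1:**
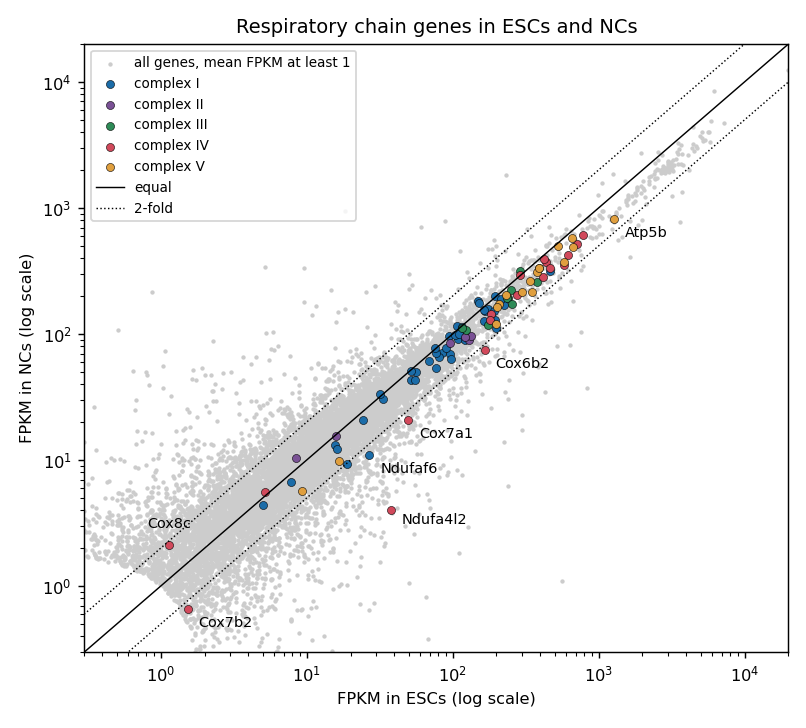
FPKM in ESCs (x axis, log scale) against FPKM in NCs (y axis, log scale) for each respiratory chain gene, coloured by complex, over all genes with a mean FPKM of at least 1 in grey; the solid line marks equal values and the dotted lines a 2-fold difference, and genes beyond the axis limits are not drawn. Most coloured points lie just under the line of equal values, and Ndufa4l2 lies farthest below it at 38.0 FPKM in ESCs and 4.04 in NCs.

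Above 30 FPKM the respiratory chain genes lay close to other genes of like level, and below it they lay lower. Between 100 and 300 FPKM the median log2 ratio was -0.21 for all genes and -0.29 for the 40 respiratory chain genes. From 300 to 1000 FPKM it was -0.31 for all genes and -0.35 for 19 respiratory chain genes. Between 30 and 100 FPKM the medians were -0.15 for all genes and -0.19 for 18 respiratory chain genes. The gap was widest between 10 and 30 FPKM, where all genes had a median of -0.03 and 8 respiratory chain genes had -0.56. Of these 8, 5 are assembly factors, Ndufa4l2 is a relative, Atp5sl was taken by its older name, and only Ndufa11 is a subunit. From 3 to 10 FPKM the medians were 0.079 for all genes and -0.21 for 5 respiratory chain genes, and from 1 to 3 FPKM they were 0.18 for all genes and -0.16 for 2.

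**Figure D2:**
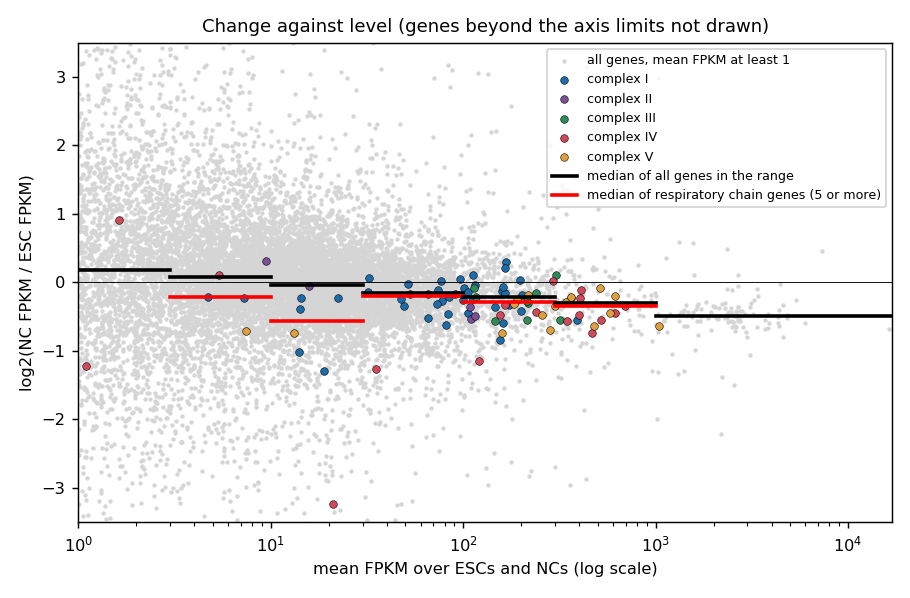
Log2 ratio of NC to ESC FPKM (y axis) against the mean FPKM of the conditions (x axis, log scale) for each respiratory chain gene, coloured by complex, over all genes with a mean FPKM of at least 1 in grey, without genes beyond the axis limits. Black bars are the median of all genes in a range of FPKM and red bars that of the respiratory chain genes where there were 5 or more; both medians lie under 0 above 30 FPKM as deposited, and with equal FPKM sums every point moves up by 0.29.

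As a share of all FPKM, which does not depend on the scaling between conditions, the 95 genes held 2.54% in ESCs and 2.44% in NCs. Complex I held 0.608% in ESCs and 0.631% in NCs. For complex II the shares were 0.0657% and 0.0623%, and for complex III 0.268% and 0.270%. The shares of complex IV were 0.729% and 0.662%, and those of complex V 0.873% and 0.813%. Complexes I and III thus took about the same share or slightly more in NCs, and complexes II, IV and V slightly less. Genes with a mean FPKM of 1000 or more, Atp5b of complex V among them, were then left out of both the members and the sum. The remaining respiratory chain genes held 4.45% in ESCs and 3.93% in NCs, and all 5 complexes had a lower share in NCs. The order of the genes by FPKM was close to the same in both conditions (Spearman's rho 0.978 over 93 genes that share the same libraries, given as a description).

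**Figure D3:**
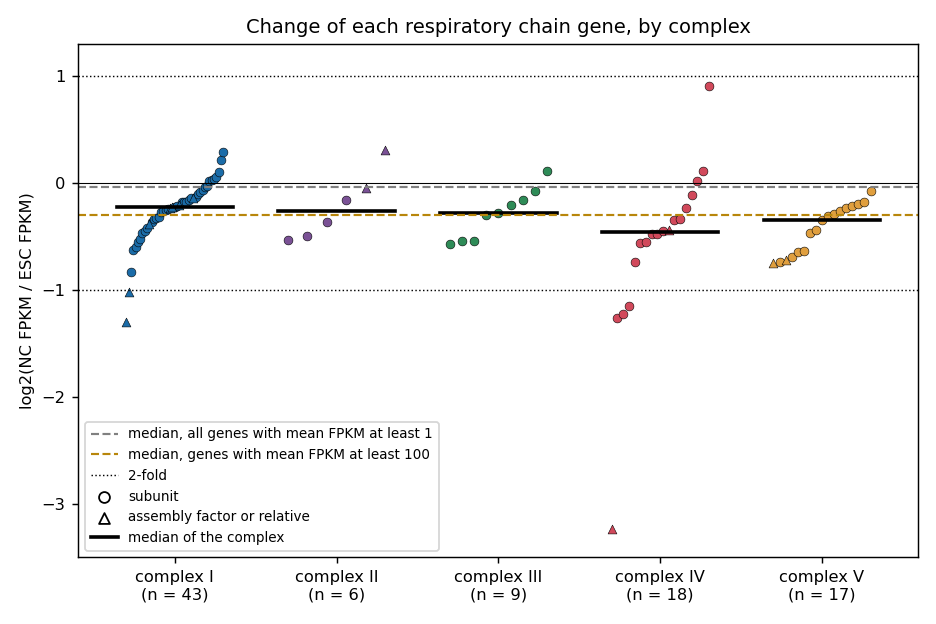
Log2 ratio of NC to ESC FPKM for each gene with a mean FPKM of at least 1, ordered within complexes I to V on the x axis; circles are subunits, triangles are assembly factors or relatives, and thick bars are the median of a complex. The dashed lines are the medians of all genes (-0.04) and of genes with a mean FPKM of at least 100 (-0.30); the median of complex IV is the lowest at -0.46, and all 17 points of complex V lie below 0 as deposited, of which 7 lie above 0 with equal FPKM sums.

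Upstream sequence is shown for a few genes because nuclear respiratory chain genes are known to be bound near their start sites by NRF1, by the ETS factor GABPA (also called NRF2) and by YY1. RefSeq promoters on GRCm38.p6, from 250 bases before to 50 bases after the start, matched 78 of the 95 genes, 77 of them with a mean FPKM of at least 1. The letters GCATGCGC, the inner part of the NRF1 motif, stood on either strand in 15.6% of these 77 genes, in 3.05% of 27025 genes of the promoter table and in 6.26% of 9351 matched genes with a mean FPKM of at least 1. The ETS letters CCGGAAG were found in 24.7% of the 77, in 9.93% of all genes and in 20.1% of those with a mean FPKM of at least 1. For the YY1 letters AAGATGGC the shares were 14.3%, 3.19% and 5.37%. The Sp1 letters GGGCGG were in 46.8% of the 77, in 38.2% of all genes and in 71.1% of those with a mean FPKM of at least 1, a lower share among the respiratory chain genes than among the genes kept, with no test of the difference. The ESRR letters TCAAGGTCA, searched because ESCs express Esrrb, were found in 2 of the 77, Atp5g3 and Sdhd, which is 2.60%, beside 0.466% of all genes and 0.364% of those with a mean FPKM of at least 1.

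Examples of these matches follow as 30 bases each, 5′ to 3′ on the strand of the gene, with the matched letters in capitals and distances counted from the RefSeq start. In the GENCODE annotation, which begins these genes earlier, the sites lie at or within the start of the gene. In Atp5k, which encodes the e subunit of ATP synthase, 2 overlapping matches to the NRF1 letters, on opposite strands, lie between 50 and 41 bases before the start (chr5:108434430-108434459, minus strand). In Sdhb, the iron-sulfur subunit of complex II, the match lies between 54 and 47 bases before the start (chr4:140961206-140961235, plus strand). In Cox6b1, the ubiquitous form of complex IV subunit 6b, the ETS letters stand on the other strand, between 28 and 22 bases before the start (chr7:30626125-30626154, minus strand).
Atp5k, NRF1: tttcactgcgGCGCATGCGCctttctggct
Sdhb, NRF1: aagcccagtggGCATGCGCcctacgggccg
Cox6b1, ETS: ctcctctcgcagCTTCCGGccagtcggaat

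The median ratios of genes with and without each set of letters lay close together. The 12 genes with the NRF1 letters had a median log2 ratio of -0.32 and the other 65 had -0.27. For the ETS letters the medians were -0.23 with and -0.29 without, and for the YY1 letters -0.21 and -0.28. For the Sp1 letters they were -0.29 with and -0.26 without. A match is only a description of the sequence, and no binding was measured here.

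Complex I had the highest median log2 ratio of the complexes, an order that scaling cannot change because it moves every gene alike. Its 43 genes summed to 4686 in ESCs against 3969 FPKM in NCs, with a median log2 ratio of -0.22, 36 lower and 7 higher. With equal FPKM sums 15 were lower and 28 higher. Under either scaling 34 lay below the median of all genes and 9 above it. The 36 subunits alone had a median of -0.19 and none was 2-fold different. Complex I also had the lowest median FPKM of the complexes, at 96.6 in ESCs and 78.0 in NCs. Among all genes the median log2 ratio fell with level, from -0.15 at 30 to 100 FPKM to -0.31 at 300 to 1000. A difference between complexes at like level was not tested.

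The 7 nuclear core subunits of complex I carry the flavin and iron-sulfur clusters that move electrons from NADH to ubiquinone, or line the ubiquinone site. They summed to 581 FPKM in ESCs and 488 in NCs, and 6 of the 7 were lower as deposited. The deepest difference was in Ndufv1, which binds NADH and the flavin, at 98.3 in ESCs against 63.7 FPKM in NCs (log2 ratio -0.63). Its partner Ndufv2, an iron-sulfur subunit, was level at 76.2 FPKM in ESCs and 77.4 in NCs. Ndufv3, a small accessory subunit beside these, had the lowest ratio of any complex I subunit, with 199.6 in ESCs against 112 FPKM in NCs (log2 ratio -0.83). The 3 genes of the NADH-binding tip thus ranged from no difference to 1.78-fold lower in NCs.

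Among the remaining core subunits, Ndufs8, an iron-sulfur protein of the arm that leads to ubiquinone, was at 77.0 FPKM in ESCs and 53.7 in NCs (log2 ratio -0.52). Ndufs1, the largest iron-sulfur subunit, was at 51.7 in ESCs against 43.5 FPKM in NCs. Ndufs7, which holds the last cluster before ubiquinone, was at 90.4 FPKM in ESCs and 78.0 in NCs. These 3 were lower in NCs as deposited, and Ndufs1 and Ndufs7 were slightly higher with equal sums. Ndufs3, a subunit of the connecting arm, was at 76.7 FPKM in ESCs and 71.3 in NCs, a log2 ratio of -0.11. Ndufs3 shares 39.7% of its 50-base words with other genes, so its reads may be divided between loci.

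Accessory subunits surround the core and are needed for assembly and stability. The 29 of them had a median log2 ratio of -0.18, with 23 lower and 6 higher. Their levels per length varied widely, the highest subunit of the complex, Ndufa7, having 19.1 times the FPKM of the lowest, Ndufa11, in ESCs and 15.3 times in NCs. Ndufa7 itself was at 463 in ESCs against 317 FPKM in NCs. Ndufa6, of the LYR motif family, was at 227 FPKM in ESCs and 170.0 in NCs, and Ndufb8, of the membrane arm, at 213 and 189 FPKM. Ndufa2 had the highest ratio of the complex, at 149 in ESCs against 183 FPKM in NCs (log2 ratio 0.29). The 10 Ndufb genes, subunits of the membrane arm, had a median of -0.22, with 8 lower and 2 higher.

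The 7 Ndufaf genes encode assembly factors that act on complex I and are not part of it. All 7 were lower in NCs as deposited, with a median log2 ratio of -0.23, and 3 remained lower with equal FPKM sums. Ndufaf6 was at 27.0 FPKM in ESCs and 11.0 in NCs, 2.46-fold lower. Ndufaf7, a methyltransferase that acts early in assembly, was at 18.9 in ESCs against 9.30 FPKM in NCs, 2.03-fold lower. These were the only complex I genes past 2-fold, and with equal FPKM sums Ndufaf6 had a log2 ratio of -1.01 and Ndufaf7 of -0.73. Ndufaf6 lies at chr4:11051045-11076205 and Ndufaf7 at chr17:78937136-78948052 on GRCm38. Neither is overlapped by another protein-coding gene or by a long noncoding gene of the classes searched in the annotation. Pseudogenes and small RNA genes were not searched. The other 5 ranged from 4.39 to 30.5 FPKM in NCs.

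Complex II, succinate dehydrogenase, is the only complex encoded by nuclear genes alone and is also an enzyme of the citric acid cycle. All 4 subunits were lower in NCs as deposited, with a median log2 ratio of -0.43. Sdha, the flavoprotein that oxidizes succinate, was nearest to equal at 95.5 FPKM in ESCs and 85.4 in NCs, and it was slightly higher with equal FPKM sums. Sdhb, whose iron-sulfur clusters carry the electrons on, was at 129.8 in ESCs against 90.0 FPKM in NCs (log2 ratio -0.53). Sdhc, a membrane anchor that binds ubiquinone, was at 135 FPKM in ESCs and 95.9 in NCs, a log2 ratio of -0.49. Sdhd, the other anchor, was at 122 in ESCs against 94.6 FPKM in NCs, a log2 ratio of -0.36. The 4 levels lay closer together in NCs, where the highest was 1.12 times the lowest, than in ESCs, where it was 1.41 times. The rule also took the assembly factors Sdhaf1 (16.0 and 15.5 FPKM) and Sdhaf2 (8.42 and 10.4 FPKM), and Sdhaf2, which helps attach the flavin to Sdha, was the only gene of this group higher in NCs as deposited. For Sdhaf1, picked after its value was seen, 69.0% of 50-base words are shared with other genes.

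Complex III passes electrons from ubiquinol to cytochrome c. Its 9 genes, all subunits, summed to 2062 FPKM in ESCs and 1695 in NCs, with a median log2 ratio of -0.28, 8 lower and 1 higher as deposited and 4 lower and 5 higher with equal FPKM sums. Under either scaling 8 lay below the median of all genes and 1 above it. Cyc1, the cytochrome c1 subunit that hands electrons to cytochrome c, was at 239 in ESCs against 194 FPKM in NCs. Uqcrfs1, the Rieske iron-sulfur protein, was at 117 FPKM in ESCs and 111 in NCs. These catalytic genes had log2 ratios of -0.30 and -0.08.

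The structural core proteins differed more from each other, as Uqcrc1 was at 174 in ESCs against 117 FPKM in NCs (log2 ratio -0.57) and Uqcrc2 at 124 FPKM in ESCs and 108 in NCs (log2 ratio -0.21). Uqcr10, a small subunit, was at 377 in ESCs against 258 FPKM in NCs and was the highest of the complex in ESCs. In NCs the highest was Uqcrh, the acidic hinge protein, which was at 291 FPKM in ESCs and 314 in NCs (log2 ratio 0.11). Uqcr11 was at 250.5 and 225 FPKM, and Uqcrb, a ubiquinone-binding subunit, at 236 and 195 FPKM. For Uqcrb 43.4% of 50-base words are shared with other genes, which makes its level uncertain.

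Complex IV, cytochrome c oxidase, had the lowest median log2 ratio of the complexes. It held 4 of the 6 genes past 2-fold as deposited, among them Ndufa4l2, the lowest ratio of all. Its 18 genes kept summed to 5615 in ESCs against 4163 FPKM in NCs. The median log2 ratio was -0.46, with 15 lower and 3 higher as deposited and 13 lower and 5 higher with equal FPKM sums. Under either scaling 15 lay below the median of all genes and 3 above it. The 4 genes past 2-fold were Ndufa4l2, Cox7a1, Cox7b2 and Cox6b2, of which the last 3 are subunits, where 9.93% of all genes were 2-fold lower. With equal FPKM sums only Ndufa4l2 of these 4 stayed past 2-fold. The log2 ratios of the others were then -0.96 for Cox7a1, -0.93 for Cox7b2 and -0.86 for Cox6b2.

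The ubiquitous nuclear subunits of complex IV were all above 100 FPKM in both conditions. Cox4i1, a regulatory subunit, was the highest, at 777 FPKM in ESCs and 613 in NCs. Cox7c, a small transmembrane subunit, was at 712 in ESCs against 522 FPKM in NCs. Cox6a1, the form of subunit 6a outside muscle, was at 616 FPKM in ESCs and 420.3 in NCs. The log2 ratios of these 3 were -0.34, -0.45 and -0.55. Cox8a, the widely expressed form of subunit 8, was at 583 in ESCs against 350.2 FPKM in NCs, the lowest ratio (-0.73) of the widely expressed subunits. Cox5b, a zinc-binding subunit, was level at 289.8 FPKM in ESCs and 294 in NCs, while Cox5a was at 414 and 281 FPKM and Cox6c at 463 and 333 FPKM; these 3 were picked after their values were seen. Cox7b was at 179.9 in ESCs against 129 FPKM in NCs, a log2 ratio of -0.48.

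Several subunits have forms made by separate genes, one of them widespread and the other known from particular tissues, and their shares within a family do not depend on the scaling between conditions. Ndufa4, now known as a subunit of complex IV, was at 424 FPKM in ESCs and 391 in NCs. Its paralog Ndufa4l2, known as a target of the hypoxia-inducible factor, was at 38.0 in ESCs against 4.04 FPKM in NCs, 9.40-fold lower. The paralog thus made up 8.22% of the pair in ESCs and 1.02% in NCs. It lies at chr10:127514967-127517154 on GRCm38, where Shmt2 on the other strand overlaps it, so reads of the pair cannot be told apart in the overlap if strand was not used. With equal FPKM sums the log2 ratio of Ndufa4l2 was -2.94 in place of -3.23.

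For subunit 6b, the ubiquitous Cox6b1 was at 435 FPKM in ESCs and 371 in NCs. Cox6b2, known as the form of testis and sperm, was at 166 in ESCs against 74.7 FPKM in NCs, 2.22-fold lower. Cox6b2 held 27.6% of the family's FPKM in ESCs and 16.8% in NCs. The gene lies at chr7:4751792-4753094 on GRCm38 and shares none of its 50-base words with other genes.

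For subunit 7a, Cox7a1, the form of heart and skeletal muscle, was at 49.6 FPKM in ESCs and 20.7 in NCs, 2.39-fold lower. Cox7a2, the form of most other tissues, was at 183 in ESCs against 146 FPKM in NCs, 1.26-fold lower. The muscle form held 21.3% of the pair in ESCs and 12.5% in NCs. Cox7a2l, a relative that links complexes III and IV into supercomplexes, was at 276 FPKM in ESCs and 204 in NCs.

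The upstream stretches of Cox7a1 and Cox7a2 are printed because the 2 genes code for alternative forms of 1 subunit and differed in both level and ratio; they were chosen after their values were seen. Each runs 5′ to 3′ on the strand of its gene from 250 bases before the RefSeq start to the last base before any annotated exon on GRCm38.p6, with motif letters in capitals. Cox7a1 (chr7:30183921-30184143, plus strand, 223 bases) held 3 CpG pairs and none of the motifs searched. Cox7a2 (chr9:79759879-79760103, minus strand, 225 bases) held 12 CpG pairs and the Sp1 letters between 44 and 39 bases before the start.
Cox7a1: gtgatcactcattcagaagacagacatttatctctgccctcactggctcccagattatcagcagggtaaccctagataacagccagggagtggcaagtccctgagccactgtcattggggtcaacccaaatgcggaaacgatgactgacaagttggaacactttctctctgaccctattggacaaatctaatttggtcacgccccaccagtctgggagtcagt
Cox7a2: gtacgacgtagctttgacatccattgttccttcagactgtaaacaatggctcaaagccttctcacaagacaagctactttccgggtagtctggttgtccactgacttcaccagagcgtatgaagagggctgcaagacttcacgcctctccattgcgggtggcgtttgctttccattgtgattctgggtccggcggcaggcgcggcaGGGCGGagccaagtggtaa

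The remaining tissue forms were rare in both conditions. Cox7b2 was at 1.53 in ESCs against 0.657 FPKM in NCs, and made up 0.844% and 0.506% of its pair with Cox7b. Cox8c, known from testis, was at 1.14 FPKM in ESCs and 2.13 in NCs, with the highest log2 ratio of any respiratory chain gene kept (0.91). Cox4i2, known from lung and low oxygen, was at 5.19 in ESCs against 5.62 FPKM in NCs, or 0.663% and 0.908% of its pair with Cox4i1. At such levels few fragments lie behind a value, and no error can be given. The muscle form Cox6a2 made up 0.0232% of its pair in ESCs and 0.113% in NCs.

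**Figure D4:**
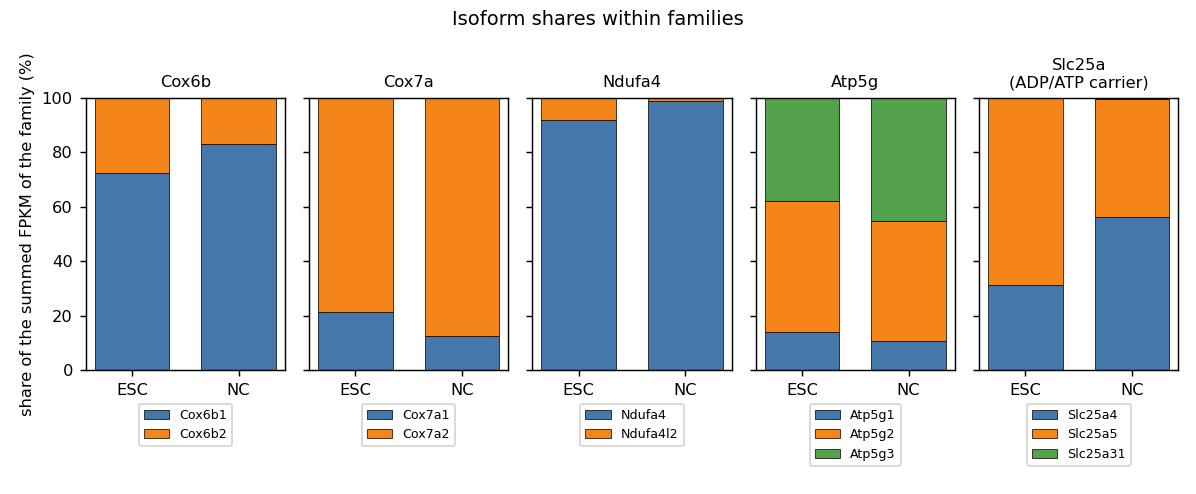
Share of the summed FPKM of a family (y axis, percent) held by each of its genes in ESCs and NCs, as stacked bars of the pooled FPKM with no error available. Cox6b2 holds 27.6% in ESCs and 16.8% in NCs, Cox7a1 21.3% and 12.5%, Ndufa4l2 8.22% and 1.02%, Atp5g3 37.9% and 45.1%, and the ADP/ATP carrier Slc25a5 68.5% and 43.4%.

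Complex V was the most abundant complex, with 6727 FPKM in ESCs and 5114 in NCs over 17 genes. All 17 were lower in NCs as deposited, with log2 ratios between -0.74 and -0.08 and a median of -0.35, and with equal FPKM sums 10 were lower and 7 higher. Under either scaling all 17 lay below the median of all genes. The 15 subunits alone had a median of -0.31. None was past 2-fold.

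The F1 head of ATP synthase holds the catalytic sites, and all 5 of its genes were lower as deposited, with a median log2 ratio of -0.47. Atp5b, the catalytic beta subunit, was the most abundant respiratory chain gene, at 1275 in ESCs against 817 FPKM in NCs. Atp5a1, the alpha subunit that alternates with it around the head, was at 579.5 FPKM in ESCs and 372 in NCs. Both had a log2 ratio of -0.64, and the excess of Atp5b over Atp5a1 was 2.20-fold in ESCs and 2.19-fold in NCs although the proteins are known to be present in equal number. Atp5c1, the gamma subunit of the rotating central stalk, was at 299 in ESCs against 216 FPKM in NCs (log2 ratio -0.47). Atp5d, the delta subunit, was at 208 FPKM in ESCs and 174 in NCs, and Atp5e, the epsilon subunit, at 394 and 335 FPKM. These last subunits had log2 ratios of -0.26 and -0.23, and both were slightly higher in NCs with equal FPKM sums.

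The c ring, which turns as protons pass, is built from 1 mature protein that 3 genes encode with different targeting sequences. Atp5g1 was at 198 in ESCs against 119 FPKM in NCs (log2 ratio -0.74). Atp5g2 was at 670.1 FPKM in ESCs and 493 in NCs (log2 ratio -0.44). Atp5g3 was at 529.6 in ESCs against 502 FPKM in NCs, the highest ratio of the complex (-0.08, or 0.22 with equal FPKM sums). Atp5g2 was the leading gene in ESCs with 47.9% of the 3 and Atp5g3 in NCs with 45.1%. Atp5g1 held the least in both, at 14.2% and 10.7%.

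The 7 genes of the peripheral stalk and membrane part had a median log2 ratio of -0.29. Atp5k was the highest of these at 659.8 FPKM in ESCs and 576 in NCs. Atp5l, the g subunit, had the lowest ratio of these at 351 in ESCs against 217 FPKM in NCs, but 84.8% of its 50-base words are shared with other genes, so its value is uncertain. Atp5s (9.28 and 5.65 FPKM) and Atp5sl (16.6 and 9.91 FPKM), which are not subunits of the enzyme, had log2 ratios of -0.72 and -0.74. Atp5sl is named Dmac2 in the GENCODE annotation and was placed with complex V by its older name only. Outside the name rule, Usmg5 and 2010107E04Rik, small subunits of ATP synthase under older names, were at 355 and 391 FPKM in ESCs and 348 and 384 FPKM in NCs; these were picked after their values were seen.

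Genes that build and serve the chain were taken from lists. For comparison with the counts of each list, 52.4% of all genes with a mean FPKM of at least 1 were lower in NCs. At the 2-fold limit 9.93% were lower and 11.1% higher. Of 38 assembly factors found, 9 are Ndufaf or Sdhaf genes described above, and the 38 had a median log2 ratio of -0.22, with 29 lower and 9 higher, 3 past 2-fold lower and 0 past 2-fold higher. Cox18, which inserts a complex IV subunit into the membrane, was at 28.6 FPKM in ESCs and 12.7 in NCs. The highest ratio was that of Cox19, a factor needed for complex IV assembly, at 17.3 in ESCs against 28.5 FPKM in NCs. Coa3, also a complex IV assembly factor, was at 52.9 and 68.6 FPKM, and Tmem70, needed for ATP synthase assembly, at 19.5 and 24.6 FPKM.

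Of 18 genes kept for mitochondrial DNA expression and biogenesis 15 were lower and 3 higher, with a median log2 ratio of -0.29. Polg, the catalytic subunit of the mitochondrial DNA polymerase, was at 68.2 FPKM in ESCs and 34.3 in NCs. Gabpa, the ETS factor named above, was at 37.6 in ESCs against 22.7 FPKM in NCs, and Lonp1, a protease of the matrix, at 87.4 and 53.3 FPKM. The highest ratios on the log2(FPKM + 1) scale belonged to Yy1 (44.9 and 52.9 FPKM), to Ppargc1a (0.0244 and 0.116 FPKM), a coactivator of mitochondrial biogenesis that was near 0 in both conditions, and to Esrra (10.7 and 11.4 FPKM). Nrf1 was level at 22.8 FPKM in ESCs and 22.5 in NCs, and Tfam, the packaging and transcription factor of mitochondrial DNA, was at 30.4 and 26.0 FPKM; these 2 were picked after their values were seen. Of the 18 genes kept only Ppargc1b, picked after its value was seen, was past 2-fold, at 1.41 in ESCs against 0.642 FPKM in NCs.

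No gene name beginning with mt- was found, so the subunits that mitochondrial DNA encodes were not analysed here. The mitochondrial ribosome makes those subunits. Its 75 genes had a median log2 ratio of -0.23, with 57 lower and 18 higher and 1, Mrpl24 (92.0 and 45.9 FPKM), past 2-fold. Next lowest were Mrpl15 (51.6 and 25.8 FPKM) and Mrps18b (80.0 and 41.9 FPKM). The highest ratios were those of Mrpl54 (61.9 and 85.7 FPKM), Mrpl27 (57.5 and 77.3 FPKM) and Mrps21 (123 and 154 FPKM). In the citric acid cycle, which feeds electrons to complexes I and II, 12 of 14 genes were lower and 2 higher, with a median of -0.18. Idh3a, the catalytic subunit of NAD-dependent isocitrate dehydrogenase, was at 81.9 FPKM in ESCs and 37.4 in NCs, the only gene of the cycle past 2-fold. Idh3g, a regulatory subunit of the same enzyme, was at 101 and 81.8 FPKM, and the highest ratios were those of Dld (48.8 and 51.1 FPKM), Mdh2 (271 and 272 FPKM) and Suclg1 (79.1 and 78.6 FPKM). The medians of all these lists lay between those of all genes (-0.04) and of abundant genes (-0.30). Most listed genes were less abundant, with a median mean FPKM of 15.1 for assembly and 20.3 for mitochondrial DNA expression. It was 46.4 for the ribosome and 81.2 for the citric acid cycle. All genes had medians of -0.03 from 10 to 30 FPKM and -0.15 from 30 to 100 FPKM. Each list thus lay below all genes of like level, with no test of the difference.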

How the data were processed

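RNA was sequenced from 3 ESC and 3 NC samples, each prepared from total RNA with the TruSeq kit. Per the labels, the authors' processing of the reads on mm10 used TopHat2 (2.0.8), with Bowtie2 at version 2.1.0, to align them, and Cufflinks 2.0.2 and Cuffdiff to estimate expression, whose version and normalization option are not given in the sources used here. The FPKM values were deposited by the authors as 1 value per gene and condition, pooled over 3 samples. The NC values are headed FPK and were read here as FPKM. The columns of the authors' own comparison hold log2 fold changes, test statistics, p-values, q-values and significance calls, and were not used.

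The 95 genes and all lists were chosen with earlier results of these data known. Cytosolic ribosomal proteins and proteasome subunits were added as lists after the data were seen. Genes were grouped by complex, and as subunits or not, from their known roles, except that Atp5s and Atp5sl were placed with complex V by name. Log2 ratios of NC to ESC FPKM were computed without a pseudocount for genes with a mean FPKM of at least 1, and genes at least 2-fold different were counted, beside the same share of all genes. With 1 value per condition no test could be run, as written in the design for such a table, and no sample could be left out. The library depths are unknown, so no precision can be given.

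Genes named with values are those at least 1.5-fold from the median of all genes, the 3 highest of each complex, the highest and lowest ratio of each complex, the core subunits of complexes I to III, the F1 head, the c ring and the tissue form families. For other lists, the 3 highest rises and 3 deepest falls on the log2(FPKM + 1) scale are named, and other genes are marked as picked after their values were seen. Values of a few genes that meet these criteria are left out.

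Positions and 50-base words shared with other transcripts came from GENCODE M21 on GRCm38, and promoters from RefSeq on GRCm38.p6. A gene with several promoters counts as holding a motif where any of them does. The computation was tested on simulated data. Python 3.11.15, numpy 2.4.6, pandas 2.3.3, scipy 1.17.1 and matplotlib 3.10.9 were used. Alternatives were other pseudocounts, filters, fold limits, denominators, centring and scaling.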

Additional observations from a re-analysis of the deposited data

How the results depend on the processing

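No paired analysis was possible because the table holds 1 value per gene and condition, and for the same reason leaving out each sample could not be run. The scaling between conditions set the direction of part of the differences, as 81 of 93 genes were lower as deposited and 45 with equal FPKM sums. With equal FPKM sums, 2 genes were at least 2-fold lower and 1 higher (Cox8c). The shares of all genes past 2-fold under that scaling were not computed. The median log2 ratio was then 0.016 for all genes of the set, where that of all genes with a mean FPKM of at least 1 was 0.26. The medians of the complexes were 0.071 for complex I, 0.031 for complex II, 0.016 for complex III, -0.17 for complex IV and -0.055 for complex V. Of 54 named genes 16 changed direction. Choices added after seeing the data differed in effect. With only genes under 10% shared words, 6 were at least 2-fold lower and 0 higher, as in the main count. Centring on abundant genes, whose median log2 ratio was -0.30, moved the counts and medians about as far as equal FPKM sums did. Counted against the median of genes with a mean FPKM of at least 100, 44 genes were below and 48 above, where 79 were below and 14 above the median of all genes. With that median subtracted, the medians were 0.022 for all, 0.077 for complex I, 0.037 for II, 0.022 for III, -0.16 for IV and -0.049 for V.

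Without a filter on low values 1 gene, Cox6a2, was at least 2-fold higher, and with a mean FPKM of at least 10 the median of complex II was -0.36. With subunits alone 3 genes were at least 2-fold lower, and complex II had a median of -0.43. A fold limit of 1.5 gave 16 lower and 1 higher, beside 18.8% and 19.3% of all genes. A limit of 0.32 on the log2 scale gave 42 lower and 1 higher. The share of all genes past that last limit was not computed, so these counts cannot be set against it. Leaving genes with a mean FPKM of 1000 or more out of both the members and the sum dropped Atp5b from the members. The shares in ESCs and NCs were then 4.45% and 3.93% for the remaining genes. They were 1.14% and 1.07% for complex I, 0.123% and 0.106% for II, 0.501% and 0.459% for III, 1.36% and 1.13% for IV, and 1.32% and 1.16% for V without Atp5b. Pseudocounts of 0.1 and 1 and centring on the median of all genes changed the direction of 0 of the 54 named genes, with 6, 4 and 5 of them past 2-fold in place of 6. Genes that share 10% or more of their words with others (28 of 95) are the least certain, and for genes near 1 FPKM no depth is known.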

Other observations

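Genes that bring electrons to the chain, carry them within it or exchange its products had values of their own, again with no replicate error and with directions that rest on the scaling. Of 28 such genes kept, 21 were lower and 7 higher in NCs as deposited, with a median log2 ratio of -0.16. At the 2-fold limit 4 were lower and 1 was higher, beside 9.93% and 11.1% of all genes. The ADP/ATP carriers, which trade matrix ATP for cytosolic ADP, changed order. Slc25a5 was at 651 in ESCs against 262 FPKM in NCs, 2.49-fold lower, and Slc25a4, known as the form of heart and muscle, was at 299 FPKM in ESCs and 339 in NCs. Slc25a4 thus held 31.4% of the carriers' FPKM in ESCs and 56.2% in NCs, although 46.6% of the 50-base words of Slc25a5 are shared with other genes. Slc25a31, the form of testis, was at 0.864 in ESCs against 2.28 FPKM in NCs. Ckmt1, the mitochondrial creatine kinase, was at 16.0 FPKM in ESCs and 2.41 in NCs. Dhodh, which passes electrons from pyrimidine synthesis to ubiquinone, was at 24.7 in ESCs against 10.7 FPKM in NCs. Vdac1, a channel of the outer membrane, was at 436 and 212 FPKM, while Vdac3 was at 89.2 and 116 FPKM and Etfdh, which passes electrons from fatty acid oxidation to ubiquinone, at 11.4 and 15.4 FPKM. Vdac1 and Slc25a4 were picked after their values were seen.

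Other large assemblies, which differ in FPKM level, are set beside these ratios. All 76 cytosolic ribosomal protein genes were lower in NCs as deposited, with a median log2 ratio of -0.49 and none past 2-fold. The median of their mean FPKM was 2457. Of all 121 genes with a mean FPKM of at least 1000, 93.4% were lower, and their median log2 ratio was -0.49. Many of these 121 are the ribosomal protein genes themselves, so the medians are not separate measures. Of 38 proteasome subunit genes 28 were lower and 10 higher, with a median of -0.14. At the 2-fold limit 3 were lower and 0 higher, beside 9.93% and 11.1% of all genes. The median of their mean FPKM was 126, and all genes between 100 and 300 FPKM had a median log2 ratio of -0.21. The median of the respiratory chain genes, -0.28, lay between these, and a difference between the assemblies at like level was not tested.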
